A study of Mus musculus with 6 samples.

Results

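The genes described here make, move, break down or sense prostaglandin E2 in mouse cumulus-oocyte complexes. In such a complex the oocyte is wrapped in the cumulus, a coat of specialised granulosa cells. A member was measured by every probe set whose gene symbol in the platform table was that gene alone. Of 10 listed genes, 9 had such a probe set, with 17 of the 45101 probe sets between them. The other gene, the cyclooxygenase gene Ptgs1, was not analysed here.

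Cytosolic phospholipase A2 frees arachidonic acid from membranes, a cyclooxygenase turns it into prostaglandin H2, and a terminal synthase such as that of Ptges turns this into prostaglandin E2. The prostaglandin leaves cells partly through ABCC4, is taken up again through SLCO2A1, is oxidised by the dehydrogenase of Hpgd, and acts on cells through the EP2 and EP4 receptors, which raise cyclic AMP. Mice that lack Ptgs2 or the EP2 gene Ptger2 ovulate and fertilise poorly and form a faulty cumulus matrix.

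The 3 groups of 2 arrays were pooled complexes of wild type immature females that had all received equine chorionic gonadotropin (eCG) for 48 h, which makes follicles grow. They differed in human chorionic gonadotropin (hCG), the ovulatory hormone: none, 8 h after it or 16 h after it. Per the labels' protocols, needle puncture released the complexes from ovaries in the group with no hCG and from oviducts at both later times, so the site of collection cannot be told apart from the hormone. The labels describe the complexes with no hCG as expanded, although they had received no ovulatory stimulus, and oviduct collection at 8 h is hard to reconcile with ovulation, which usually comes later. Neither wording was resolved, so the stated site at 8 h is uncertain. Nothing in the labels says that the arrays of a group came from separate collections, so p-values reflect the spread among these arrays alone, which may be technical.

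Values are log2 intensities, and a change is the difference of group means on that scale ± SE from a limma fit of all 6 arrays. A probe set was called changed at a Benjamini-Hochberg adjusted p under 0.05 over 27022 probe sets. A mean of 5.62 over the 6 arrays, the 40th percentile, was the limit for testing, and probe sets below it are called dim. Signal over background is unknown, so a change that involves a dim mean is uncertain in size. Array medians lay between 6.15 and 6.27. Arrays of a group correlated at r = 0.991 or more, and arrays of different groups at 0.978 or less. All 10 cumulus and granulosa markers and all 11 oocyte markers were above the dim limit in every group. In pooled tissue, fewer cells of a type and less RNA per cell cannot be told apart.

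At 8 h against no hCG, 5 of the 9 genes rose (Pla2g4a, Ptgs2, Slco2a1, Ptger2 and Ptger4), Ptges and Hpgd fell, and Ptges2 and Abcc4 were not called. Called genes made up 77.8% of the 9, against 37.4% of all 13559 tested genes, of which 16.9% rose and 20.5% fell, and the median size of change was 1.39, against 0.34 over all genes. From 8 h to 16 h, Ptgs2, Ptger2 and Abcc4 rose, Slco2a1 and Hpgd fell, and 4 genes were not called. That is 55.6% of the 9, against 20.9% of all genes, of which 11.8% rose and 9.12% fell, and only 3 members were called without replicate 2 of the 8 h group. At 16 h against no hCG, the same 5 genes as at 8 h were higher and the same 2 were lower, with 41.6% of all genes called, 20.8% in each direction. The members were chosen with earlier results of these data known, so these counts describe them and test nothing about the set.

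**Figure D1:**
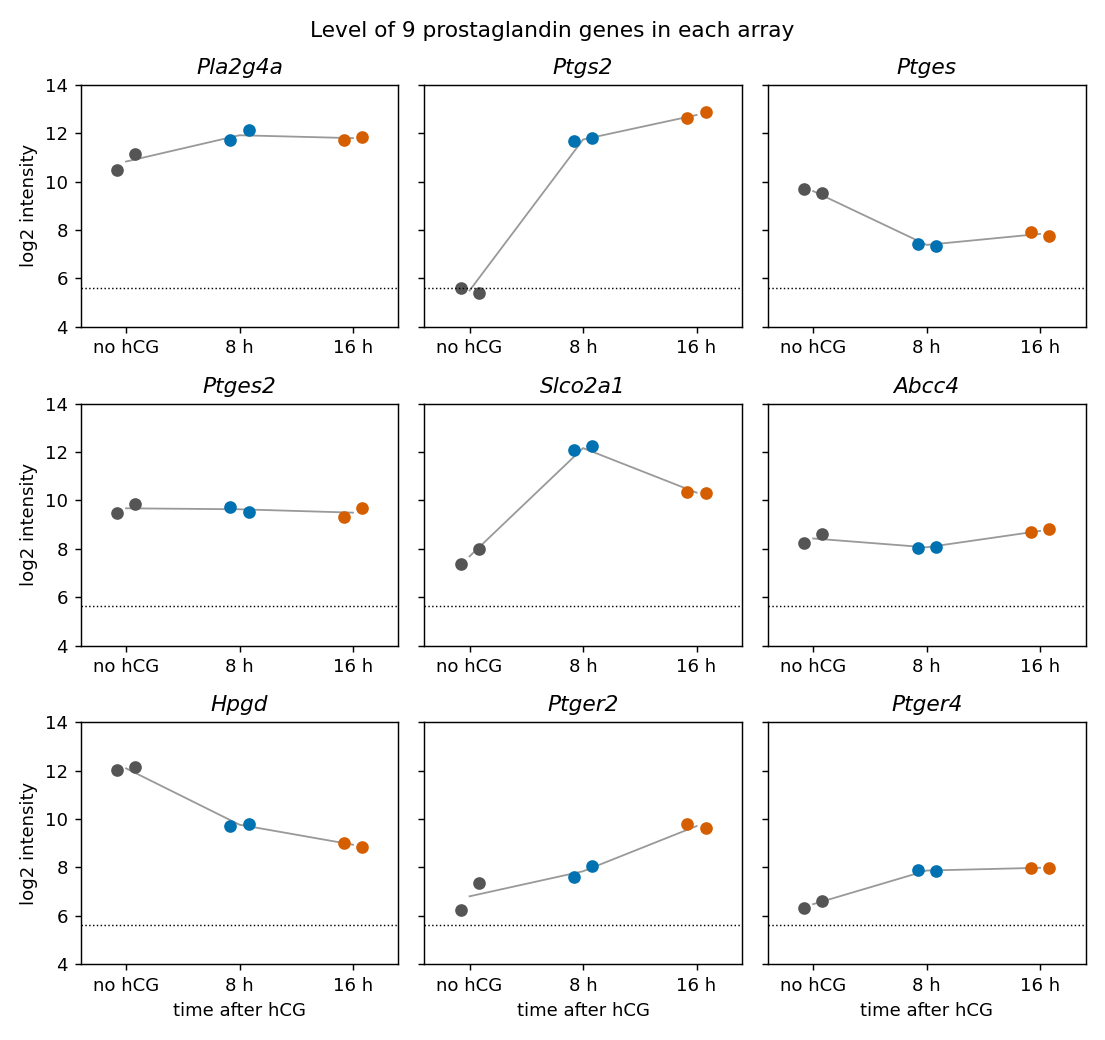
Log2 intensity (vertical axis) of the brightest probe set of each of 9 genes on each array (points, 2 per group) with no hCG, 8 h and 16 h after hCG; grey lines join group means and the dotted line is the dim limit of 5.62. Ptgs2 climbs to 12.76 at 16 h, Slco2a1 peaks at 12.16 at 8 h, and Hpgd declines across the 3 groups.

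Promoter sequences of 4 members are shown, those with the largest rises at 8 h, Ptgs2 and Slco2a1, and those that fell, Ptges and Hpgd. They are RefSeq's, build GRCm38.p6, on the gene's own strand, from 250 bases before to 50 after the annotated start, written 5′ to 3′. Capitals mark matches on either strand to the TATA box TATAAA, the core TGACG of the cyclic AMP response element, its whole form TGACGTCA, the E-box CACGTG, the GC box GGGCGG, the CCAAT box and the AP-1 site TGANTCA, in which N is any base.
Ptgs2 (chr1:150099781-150100080, plus strand): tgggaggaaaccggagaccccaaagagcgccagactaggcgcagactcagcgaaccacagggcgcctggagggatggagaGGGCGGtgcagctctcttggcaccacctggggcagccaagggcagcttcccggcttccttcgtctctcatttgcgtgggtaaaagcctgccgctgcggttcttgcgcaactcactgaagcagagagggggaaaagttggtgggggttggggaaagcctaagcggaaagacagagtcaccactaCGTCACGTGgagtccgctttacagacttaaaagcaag
Slco2a1 (chr9:103008237-103008536, plus strand): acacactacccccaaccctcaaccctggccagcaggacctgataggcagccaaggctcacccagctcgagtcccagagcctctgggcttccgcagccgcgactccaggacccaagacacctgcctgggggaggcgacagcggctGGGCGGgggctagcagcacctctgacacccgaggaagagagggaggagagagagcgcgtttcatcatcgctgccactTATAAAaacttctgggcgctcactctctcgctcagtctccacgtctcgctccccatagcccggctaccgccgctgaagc
Ptges (chr2:30903248-30903547, minus strand): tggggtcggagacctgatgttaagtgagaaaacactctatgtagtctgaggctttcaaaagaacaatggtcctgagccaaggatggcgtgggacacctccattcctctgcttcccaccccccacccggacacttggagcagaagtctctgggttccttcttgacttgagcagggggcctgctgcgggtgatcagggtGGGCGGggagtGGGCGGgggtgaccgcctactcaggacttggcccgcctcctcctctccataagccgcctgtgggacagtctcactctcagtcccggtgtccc
Hpgd (chr8:56294302-56294601, plus strand): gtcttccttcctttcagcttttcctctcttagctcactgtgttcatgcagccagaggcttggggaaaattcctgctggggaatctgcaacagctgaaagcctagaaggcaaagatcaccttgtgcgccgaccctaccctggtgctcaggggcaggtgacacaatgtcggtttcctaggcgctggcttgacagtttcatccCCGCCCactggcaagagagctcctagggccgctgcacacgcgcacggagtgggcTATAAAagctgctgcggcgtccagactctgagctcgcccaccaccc
In the Ptgs2 window, TGACG matched on the opposite strand at bases 14 to 18 after the start, and CACGTG at bases 17 to 22, so both share 2 bases. TGACG was in 20.8% and CACGTG in 7.15% of 32851 windows of the same length. Of the 9 genes, only Ptgs2 had TGACG, while CACGTG was in 3, Ptgs2, Ptges2 and Abcc4. The TATA box, in 13.6% of all windows, lay at positions -29 to -24 for Slco2a1 and at bases 5 to 10 after the start for Hpgd. It also matched on the opposite strand at positions -200 to -195 in a window of Pla2g4a. The GC box was in the windows of 6 of the 9 genes and in 35.7% of all windows, and it occurred at 2 places in that of Ptges. The CCAAT box (37.4% of all windows) was in those of Pla2g4a, Ptger2 and Ptger4, and the whole cyclic AMP element (1.79%) and the AP-1 site (7.81%) were in none of the 11 windows of the members. A match describes letters in this window and is no evidence of binding.

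The supply of arachidonic acid was addressed by Pla2g4a, which encodes cytosolic phospholipase A2 alpha. Its probe set read 10.50 and 11.16 with no hCG, 11.71 and 12.13 at 8 h, and 11.74 and 11.86 at 16 h. Both arrays of each later group lay above both with no hCG, and the 8 h and 16 h arrays overlapped. Pla2g4a was higher by 1.09 ± 0.23 at 8 h (2.12-fold; limma, adjusted p = 0.00517) and by 0.97 ± 0.23 at 16 h (adjusted p = 0.00865), both against no hCG. The change from 8 h to 16 h, -0.12 ± 0.23, was not called, with a 95% interval of -0.64 to 0.40. The 8 h call was lost without replicate 2 of the 8 h group (0.88, adjusted p = 0.0508), and the 16 h call without either array of the 16 h group (adjusted p = 0.0518 and 0.0738). On chromosome 1, Pla2g4a is the protein-coding gene next to Ptgs2 in GRCm38.p6.

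Ptgs2 encodes the inducible cyclooxygenase, and it rose in both intervals. Probe set 1417262_at read 5.61 and 5.39 with no hCG, 11.69 and 11.80 at 8 h, and 12.62 and 12.89 at 16 h. The 3 groups did not overlap, and the level was still higher at 16 h than at 8 h. The rise was 6.24 ± 0.17 at 8 h against no hCG (75.7-fold; limma, adjusted p = 5.65e-08). A further 1.01 ± 0.17 followed from 8 h to 16 h (2.02-fold; adjusted p = 0.00251), which made 7.26 ± 0.17 at 16 h against no hCG (153-fold; adjusted p = 5.3e-08). The mean with no hCG, 5.50, was under the dim limit, so the folds against that group, and any rank by them, are uncertain.

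The other Ptgs2 probe set, 1417263_at, had the same order of groups at smaller size. It read 4.83 and 5.21 with no hCG, 8.71 and 8.64 at 8 h, and 9.43 and 9.55 at 16 h. Its changes were 3.65 ± 0.17 at 8 h against no hCG and 0.82 ± 0.17 from 8 h to 16 h (limma, adjusted p = 7.76e-07 and 0.00921). The later change was not called without any 1 of the 4 arrays at 8 h and 16 h, with adjusted p from 0.0519 to 0.0807, whereas that of 1417262_at was called under all alternatives run.

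Ptges encodes the inducible microsomal prostaglandin E synthase, which acts downstream of the cyclooxygenase, and it fell while Ptgs2 rose. Probe set 1449450_at read 9.70 and 9.52 with no hCG, 7.41 and 7.36 at 8 h, and 7.93 and 7.76 at 16 h. Probe set 1439747_at read 9.81 and 10.05 with no hCG, 7.09 and 7.62 at 8 h, and 7.43 and 7.25 at 16 h. The third, 1449449_at, read 9.53 and 9.76 with no hCG, 7.26 and 7.08 at 8 h, and 6.89 and 6.99 at 16 h. All arrays after hCG lay below all arrays without it in each of the 3 probe sets, and all of these means were above the dim limit.

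At 8 h against no hCG, the 3 Ptges probe sets changed by -2.22 ± 0.16, -2.58 ± 0.20 and -2.48 ± 0.16, or 4.67-fold to 5.96-fold downward (limma, adjusted p = 4e-06 to 1.13e-05). From 8 h to 16 h none was called, at 0.46 ± 0.16 for 1449450_at (adjusted p = 0.0764), -0.01 ± 0.20 for 1439747_at and -0.23 ± 0.16 for 1449449_at, so the probe sets differed in sign. The first was called without either array of the group with no hCG (adjusted p = 0.0493). At 16 h against no hCG all 3 remained lower, with changes from -2.71 to -1.77 (adjusted p = 1.59e-06 to 1.92e-05).

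Ptges2 encodes a second, membrane-associated prostaglandin E synthase. It read 9.48 and 9.87 with no hCG, 9.73 and 9.54 at 8 h, and 9.32 and 9.67 at 16 h, and the groups overlapped throughout. Its changes were -0.04 ± 0.19 at 8 h against no hCG and -0.18 ± 0.19 at 16 h against no hCG (limma, adjusted p = 0.908 and 0.527). The 95% intervals, -0.47 to 0.39 and -0.61 to 0.26, hold no change of the size seen in Ptges.

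**Figure D2:**
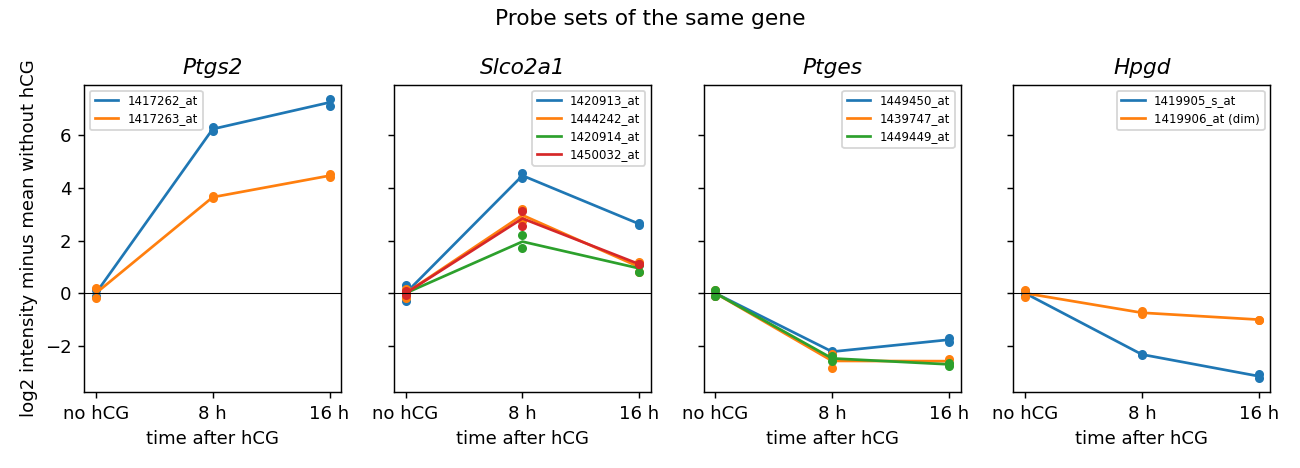
Log2 intensity minus the mean with no hCG (vertical axis) for every probe set of Ptgs2, Slco2a1, Ptges and Hpgd at the 3 times; points are single arrays and lines join group means. The probe sets of a gene share the direction of change at 8 h and differ in its size, from 3.65 to 6.24 for Ptgs2.

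Slco2a1, the prostaglandin transporter that carries prostaglandins into cells, peaked at 8 h. Its brightest probe set, 1420913_at, read 7.39 and 7.99 with no hCG, 12.06 and 12.26 at 8 h, and 10.34 and 10.30 at 16 h. The 3 groups did not overlap, and the 16 h arrays lay between the other groups. The rise at 8 h against no hCG was 4.47 ± 0.21 (22.2-fold; limma, adjusted p = 7.13e-07), and the fall from 8 h to 16 h was -1.84 ± 0.21 (3.58-fold; adjusted p = 0.000267). At 16 h the gene was still 2.63 ± 0.21 above no hCG (6.2-fold; adjusted p = 8.8e-06).

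The other 3 Slco2a1 probe sets rose and fell in the same way. Probe set 1444242_at read 7.30 and 7.65 with no hCG, 10.23 and 10.66 at 8 h, and 8.67 and 8.27 at 16 h. Over these 3 the rise at 8 h was 1.96 to 2.97 and the fall from 8 h to 16 h ran from -1.97 to -1.02. The difference of 16 h from no hCG was 0.94 to 1.10, and all of these changes were called. Probe set 1450032_at had a dim mean with no hCG, 5.28, so its changes against that group are uncertain in size. The fall of 1420914_at was not called without replicate 2 of the 8 h group or of the 16 h group (adjusted p = 0.058 and 0.0653), nor was the 16 h difference of 1444242_at from no hCG without replicate 1 of the 16 h group (adjusted p = 0.0593).

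Abcc4, a pump that exports prostaglandins and cyclic nucleotides, moved little. It read 8.23 and 8.62 with no hCG, 8.03 and 8.09 at 8 h, and 8.68 and 8.80 at 16 h, without overlap between groups. The change at 8 h against no hCG, -0.36 ± 0.17, was not called (limma, adjusted p = 0.141; 95% interval -0.75 to 0.02). From 8 h to 16 h it rose by 0.68 ± 0.17 (1.6-fold; adjusted p = 0.0237), a call lost without any 1 of the 4 arrays at these times (adjusted p = 0.0885 to 0.148). At 16 h against no hCG the difference was 0.31 ± 0.17 (adjusted p = 0.199). Leaving out replicate 1 with no hCG gave a called fall of -0.56 at 8 h (adjusted p = 0.0367), and leaving out replicate 2 with no hCG gave a called difference of 0.51 at 16 h (adjusted p = 0.0468).

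Hpgd encodes 15-hydroxyprostaglandin dehydrogenase, the enzyme that starts the breakdown of prostaglandin E2. Probe set 1419905_s_at read 12.03 and 12.17 with no hCG, 9.73 and 9.80 at 8 h, and 9.02 and 8.86 at 16 h. The groups did not overlap, and each later group was lower than the one before. The gene changed by -2.33 ± 0.15 at 8 h against no hCG (5.03-fold; limma, adjusted p = 4.34e-06) and by a further -0.83 ± 0.15 from 8 h to 16 h (1.77-fold; adjusted p = 0.00494). At 16 h it was -3.16 ± 0.15 against no hCG (8.91-fold; adjusted p = 5.94e-07). The change after 8 h was not called without replicate 2 of the 8 h group (-0.79, adjusted p = 0.0513).

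The ending of that probe set's name marks it as one that may also bind other transcripts. The other Hpgd probe set, 1419906_at, was dim and not tested. It read 6.21 and 5.95 with no hCG, 5.28 and 5.39 at 8 h, and 5.08 and 5.07 at 16 h, in the same order and again without overlap.

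**Figure D3:**
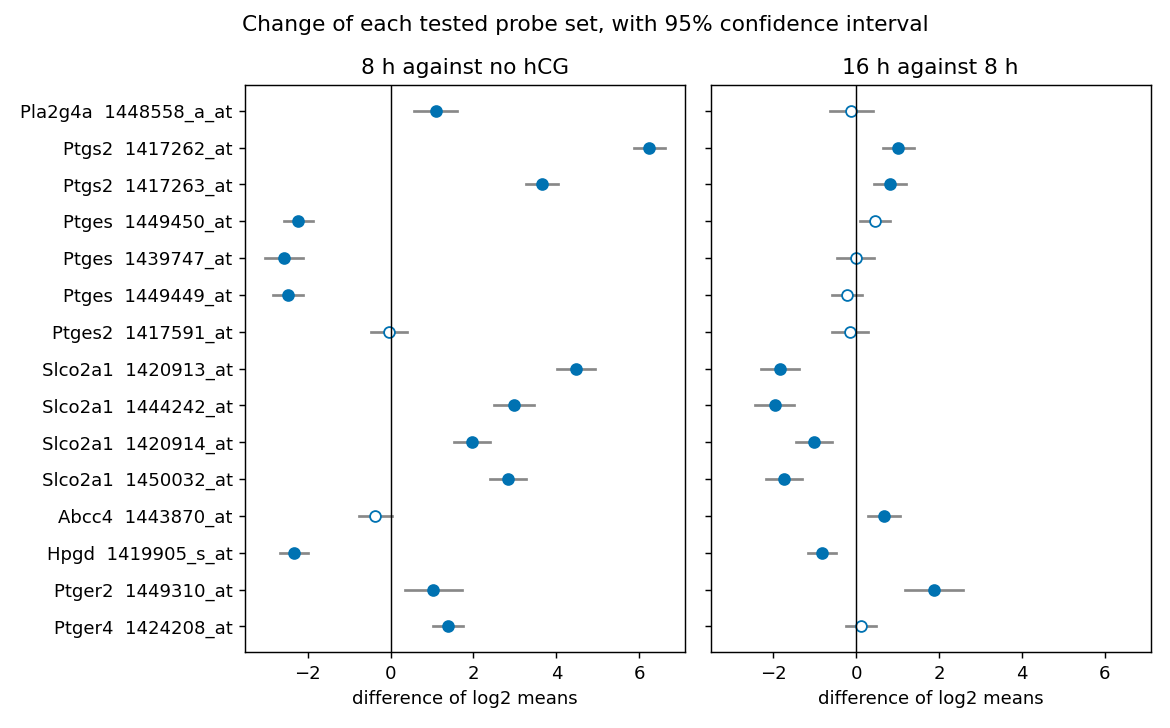
Difference of log2 group means (horizontal axis) for the 15 tested probe sets of the 9 genes, at 8 h against no hCG and at 16 h against 8 h; bars are 95% confidence intervals of the limma fit, filled points passed the adjusted p threshold and open points did not. Ptgs2 is positive in both panels and Hpgd negative in both, Slco2a1 changes sign, and Ptges is negative in the first panel with no call in the second.

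The receptors rose at different times. Ptger2, the EP2 receptor gene, read 6.26 and 7.35 with no hCG, 7.61 and 8.07 at 8 h, and 9.78 and 9.64 at 16 h. The 16 h arrays lay well above the rest, and the arrays with no hCG differed from each other by more than those of any other group. The gene rose by 1.87 ± 0.31 from 8 h to 16 h (3.65-fold; limma, adjusted p = 0.00261) and was 2.90 ± 0.31 higher at 16 h than with no hCG (7.48-fold; adjusted p = 6.56e-05).

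The 8 h change of Ptger2 against no hCG, 1.03 ± 0.31 (adjusted p = 0.0281), rested on single arrays. It was 0.49 without replicate 1 with no hCG (adjusted p = 0.122) and 0.80 without replicate 2 of the 8 h group (adjusted p = 0.169). It was also not called with the compared groups alone in the fit or without either 16 h array (adjusted p = 0.067 each).

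Ptger4, the EP4 receptor gene, had reached its later level by 8 h. Probe set 1424208_at read 6.34 and 6.62 with no hCG, 7.88 and 7.87 at 8 h, and 7.99 and 7.99 at 16 h. Arrays of a group after hCG were nearly equal, and all 4 lay above those with no hCG. It rose by 1.39 ± 0.16 at 8 h against no hCG (2.62-fold; limma, adjusted p = 0.000116) and was 1.50 ± 0.16 higher at 16 h (2.84-fold; adjusted p = 5.95e-05). From 8 h to 16 h its change was 0.11 ± 0.16, with a 95% interval of -0.24 to 0.47. Its other probe set, 1421073_a_at, was dim, with means of 4.28 with no hCG, 4.73 at 8 h and 4.82 at 16 h.

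Of 7 tested prostanoid receptor genes, including these 2, 3 rose at 8 h against no hCG and 0 fell, with a median change of 0.25, against 16.9% of all genes that rose, 20.5% that fell and a median of -0.02 over all genes. The other that rose was Ptgfr, the prostaglandin F receptor. The receptor list also held Ptgfrn, which is no receptor but encodes a membrane protein that limits ligand binding to the prostaglandin F receptor, and which rose too. Ptgfr read 5.85 and 7.79 with no hCG, 9.95 and 10.18 at 8 h, and 7.57 and 8.24 at 16 h. Its arrays with no hCG were far apart, and the 16 h group overlapped that group. At 16 h against no hCG the change of this probe set, 1.08 ± 0.50, was not called (limma, adjusted p = 0.12), while 2 of 4 probe sets of Ptgfr were called higher. The gene rose by 3.24 ± 0.50 at 8 h against no hCG (adjusted p = 0.000737), in 4 of 4 probe sets. It fell by 2.16 from 8 h to 16 h (adjusted p = 0.0144), in 3 of 4. That fall was not called without replicate 2 of the 8 h group or without either 16 h array (adjusted p = 0.0649 to 0.157). Ptgfrn rose by 1.66 ± 0.16 at 8 h and was 2.47 ± 0.16 above no hCG at 16 h. Ptger1, Ptgdr, Ptgdr2 and Tbxa2r were not called in any of the 3 comparisons, with changes from -0.27 to 0.25. Ptgdr, the prostaglandin D receptor, is the protein-coding neighbour of Ptger2 on chromosome 14.

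Among 10 tested cyclooxygenase and terminal synthase genes, 2 rose and 3 fell at 8 h against no hCG, close to the 16.9% and 20.5% of all genes. Beside Ptges, the prostacyclin synthase gene Ptgis fell. Ptgis read 11.36 and 11.60 with no hCG, 9.36 and 9.54 at 8 h, and 9.74 and 9.76 at 16 h, a change of -2.03 ± 0.16 at 8 h and -1.73 ± 0.16 at 16 h against no hCG (limma, adjusted p = 1.22e-05 and 2.58e-05). Gstm2, a glutathione transferase, rose by 1.38 ± 0.20 at 8 h and then fell to a mean of 9.57 at 16 h, against 12.11 at 8 h. Prxl2b, which encodes a prostaglandin F synthase, rose by 1.00 ± 0.17 from 8 h to 16 h (adjusted p = 0.0026), and Gstm5, another glutathione transferase, changed by -1.03 at 16 h against no hCG. The prostaglandin D and thromboxane synthase genes Ptgds and Tbxas1 were not called in any comparison.

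Of 14 genes on the list of arachidonate release, 4 rose and 2 fell at 8 h against no hCG, with a median of 0.01. A share near this, 37.4%, was called over all genes, so the count is not particular to the list. Anxa1, which encodes the phospholipase A2 inhibitor annexin A1, read 9.43 and 10.01 with no hCG, 12.03 and 12.06 at 8 h, and 13.24 and 13.20 at 16 h. It rose by 2.33 ± 0.20 at 8 h against no hCG and by 1.18 ± 0.20 from 8 h to 16 h (limma, adjusted p = 1.9e-05 and 0.00278). The calcium-independent phospholipase gene Pla2g4c went the other way from Pla2g4a at 8 h, at -2.24 ± 0.16, and rose by 1.59 ± 0.16 after it. Only 1 of its 2 tested probe sets was called. Pla2g15, a lysosomal phospholipase gene, fell by 1.23 from 8 h to 16 h in 1 of 2 probe sets, and the secreted phospholipase gene Pla2g12a changed by -1.30 at 16 h against no hCG.

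Of 10 tested transporter genes, Slco2a1 rose at 8 h against no hCG, 3 fell and 6 were not called, where 16.9% of all genes rose and 20.5% fell. The falls were those of the multidrug resistance pump gene Abcc3 (-2.69 ± 0.15) and of the organic anion transporter genes Slco3a1 (-1.02 ± 0.15) and Slco4a1 (-1.16 ± 0.17). Abcc2, another pump of the family, fell from 8 h to 16 h (-1.57 ± 0.21, to a dim mean of 4.69).

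On the breakdown list of 11 tested genes, 2 rose and 3 fell at 8 h against no hCG (16.9% and 20.5% of all genes), and 4 rose and 3 fell at 16 h against no hCG (20.8% of all genes each way). Akr1c18, an aldo-keto reductase best known for inactivating progesterone, read 8.28 and 8.18 with no hCG, 10.57 and 10.45 at 8 h, and 13.09 and 13.17 at 16 h. It was 4.90 ± 0.15 higher at 16 h than with no hCG (limma, adjusted p = 7.92e-08), with no overlap of groups. The hydroxylase gene Cyp4f18 rose by 1.96 ± 0.16 at 8 h, and Ptgr2, which encodes a reductase that acts on the product of the Hpgd enzyme, was 1.13 ± 0.21 higher at 16 h than with no hCG in 4 of 4 probe sets. The hydroxylase gene Cyp4f39 fell by 1.33 at 8 h, to a dim mean of 5.55, and its relative Cyp4f15 fell by 1.06 from 8 h to 16 h.

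**Figure D4:**
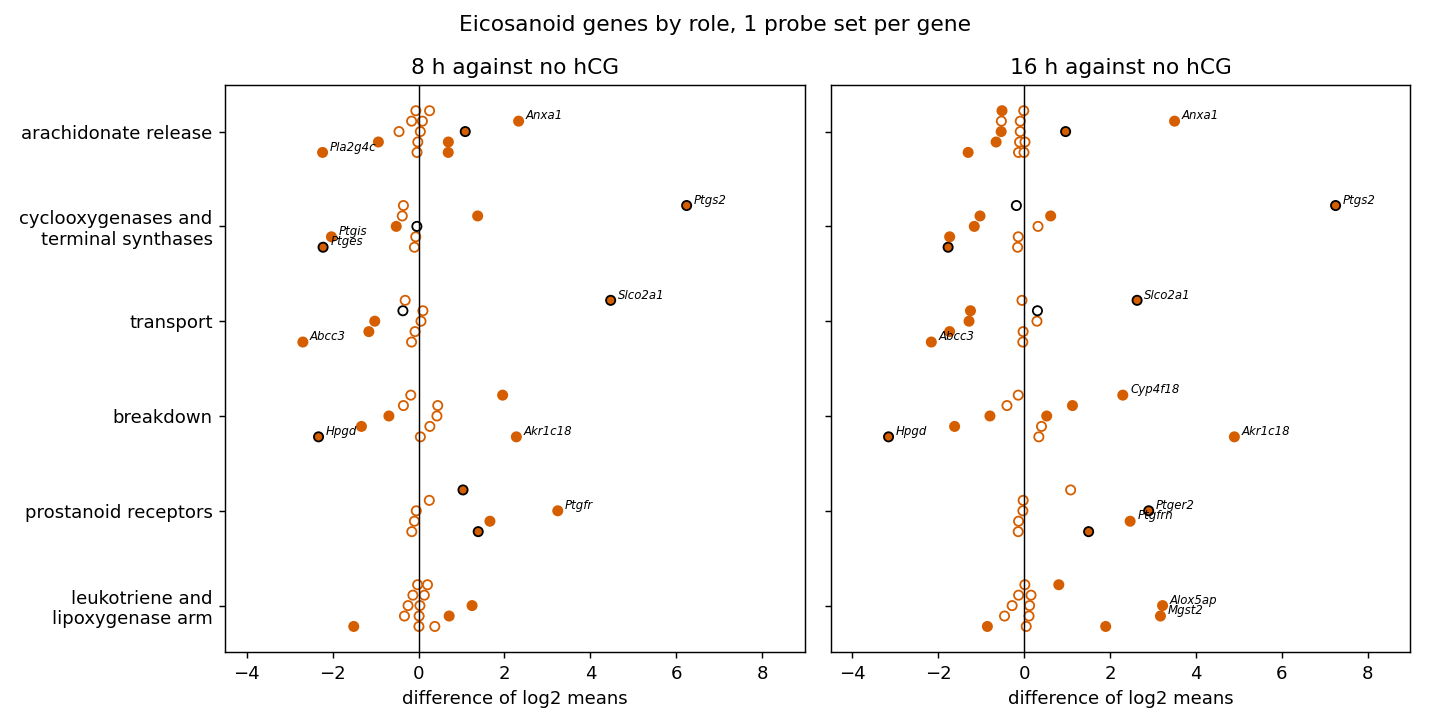
Difference of log2 group means (horizontal axis) of eicosanoid genes by role, 1 probe set per gene, at 8 h and at 16 h, each against no hCG; filled points passed the adjusted p threshold, black outlines mark members, and names are given to called genes with a change of 2 or more. Ptgs2 at 7.26 and Akr1c18 at 4.90 lie farthest right at 16 h, and Hpgd at -3.16 farthest left.

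Leukotriene and lipoxygenase genes belong to the other branch of arachidonate use. Of 13 tested, 2 rose and 1 fell at 8 h against no hCG (16.9% and 20.5% of all genes), and 10 were not called. From 8 h to 16 h 5 rose and 0 fell (11.8% and 9.12% of all genes), and 8 were not called, with a median change of 0.12. Whether the intervals differ was not tested. Alox5ap, the partner protein of 5-lipoxygenase, read 5.99 and 6.57 with no hCG, 7.44 and 7.62 at 8 h, and 9.70 and 9.31 at 16 h. It rose by 1.98 ± 0.22 from 8 h to 16 h (limma, adjusted p = 0.000255). The lipoxygenase gene Alox15 rose by 1.92 ± 0.16 and the leukotriene C4-forming transferase gene Mgst2 by 2.46 ± 0.17 in the same interval. The related transferase gene Mgst3 fell by 1.51 at 8 h against no hCG.

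Markers of leukocytes, which also express several of these genes, rose in this interval too. Of 15 tested leukocyte markers 14 rose from 8 h to 16 h, with a median of 2.04, against 11.8% of all genes that rose, and the summed linear level of the 16 listed was 10010 and 10025 on the 16 h arrays, against 3831 and 4034 at 8 h. With no hCG the sums were 4279 and 4435. At 16 h 1 of the 16 was dim, against 3 at 8 h. Of 8 oviduct epithelium markers, 5 rose and 1 fell in that interval, and the sum of the 10 listed was 9611 to 11222 at 16 h, against 2483 to 2488 at 8 h. With no hCG this sum was 3347 to 3730. It was thus lower at 8 h, labelled as collected from oviducts, than with no hCG, labelled as collected from ovaries. The bearing of this on the site of collection was not tested. At 8 h against no hCG, 11 of 11 oocyte markers fell, with sums of 8018 to 8634 at 8 h against 35771 to 42082 with no hCG, and 6 of 10 cumulus and granulosa markers fell, against 20.5% of all genes. The part of these shifts in the changes of Ptgs2, Ptger2, Abcc4, Hpgd, Ptges and the leukotriene genes was not tested.

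On the list of EP receptor signalling through cyclic AMP, 11 of 24 genes rose at 8 h against no hCG and 2 fell, with a median of 0.42. Over all genes 16.9% rose and 20.5% fell, with a median of -0.02. The list mixes parts that pass the signal on with parts that limit it, so the count gives no direction of signalling. Those that rose included the stimulatory G protein subunit gene Gnas and the inhibitory ones Gnai1 (1.09 ± 0.16) and Gnai2 (0.53 ± 0.15). The rise was called in 1 of 2 tested probe sets of Gnas, 2 of 3 of Gnai1 and 1 of 2 of Gnai2. The kinase gene Prkaca, in 2 of 2 probe sets, and the arrestin gene Arrb1 (0.74 ± 0.15) rose too. Crem, a cyclic AMP responsive transcription factor gene, rose by 2.87 ± 0.15 and Prkar1b, a regulatory subunit of protein kinase A, by 2.80 ± 0.24 (limma, adjusted p = 1.3e-06 and 1.93e-05). Prkar1a, another regulatory subunit, rose by 1.04 in 1 of 2 probe sets, and Prkar2b was -1.38 at 16 h against no hCG. From 8 h to 16 h 1 gene rose and 4 fell (11.8% and 9.12% of all genes). The gene that rose was Arrb1, which encodes an arrestin that shuts off receptors, at 1.27 ± 0.15, and Gnai1, an inhibitory G protein subunit, fell by 1.64.

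Of the cumulus expansion genes reported in mice to depend on Ptgs2 or Ptger2, 5 were tested and 5 rose at 8 h against no hCG. Over all genes 16.9% rose. The list was chosen with earlier results of these data known, so this count describes it and tests nothing. After 8 h the courses of these 5 genes parted. The hyaluronan cross-linking gene Tnfaip6 read 5.22 and 4.80 with no hCG, 9.43 and 9.77 at 8 h, and 10.53 and 10.48 at 16 h, and rose by 0.90 ± 0.19 from 8 h to 16 h (limma, adjusted p = 0.00956), as Ptgs2 did. The hyaluronan synthase gene Has2 fell by 1.90, the matrix pentraxin gene Ptx3 by 1.13 and the EGF-like ligand gene Ereg by 0.71 in that interval (adjusted p = 3.31e-05, 0.00601 and 0.0102). The fall of Ptx3 was not called without replicate 2 of the 8 h group or replicate 1 of the 16 h group (adjusted p = 0.0539 and 0.0767). Btc, another EGF-like ligand gene, rose by 4.83 ± 0.21 at 8 h and was not called from 8 h to 16 h in its brightest probe set (adjusted p = 0.0908), while the other of its 2 probe sets was called lower. The 16 h means stayed above no hCG in all 5, by 1.34 to 5.49. Means with no hCG were dim for Tnfaip6 (5.01) and Ereg (4.62), so their changes against that group are uncertain in size.

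Likeness of course was measured as the distance between genes in the plane of the 8 h minus no hCG and 16 h minus 8 h differences, over 13559 tested genes and 3 groups. For Ptgs2 the distances were taken from 1417262_at, whose change at 8 h rests on a dim mean with no hCG and was larger than that of 1417263_at, so they hold for that probe set alone. Nearest to it was C730049O14Rik at 1.13, followed by the asialoglycoprotein receptor gene Asgr1 at 1.38, the calcium-binding protein gene S100a6 at 1.44 and the transcriptional co-activator gene Cited4 at 1.56. Of these, Cited4 rose by 1.05 from 8 h to 16 h, a call lost without replicate 2 of the 8 h group or either 16 h array (limma, adjusted p = 0.0598 to 0.0952). Over the alternative settings, the 8 h change of S100a6 against no hCG ran from 3.97 to 6.16. That of C730049O14Rik ran from 5.42 to 6.26 and that of Asgr1 from 4.72 to 5.25, so the order of the genes nearest to Ptgs2 is uncertain. Nearest to Slco2a1 were the Wnt receptor gene Fzd1 at 0.23, Abi3bp at 0.43, the hepatocyte growth factor receptor gene Met at 0.43 and the phosphatidylinositol transfer protein gene Pitpnc1 at 0.56. Hpgd had close neighbours in Sema3g, a semaphorin gene, at 0.08, Rassf6 at 0.10, Fbxw27 at 0.12 and the carbonic anhydrase gene Car9 at 0.15.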

How the data were processed

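Biotin-labelled cRNA of 6 pooled samples was hybridised to a mouse array, per the labels' protocols. The authors deposited log2 intensities, 1 per probe set and array. That they are on a log2 scale follows from their range, 3.32 to 15.5. Software, background correction and normalization are not given in the sources used here. Groups and replicate numbers came from titles. Values were used as deposited, since array medians differed by 0.124 at most, under a limit of 0.2. No depth applies to arrays, and 2 arrays per group limit the precision.

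The 64 control probe sets were left out. Of the others, 34945 had 1 symbol in the platform table, 932 several and 9160 none, and the gene numbers of all 17 member probe sets matched RefSeq's symbols. Probe sets with a mean at or above the 40th percentile, 27022 in all, were fitted with limma 3.58.1 (R 4.3.3; lmFit and eBayes, 3 residual and 6.43 prior degrees of freedom) over all 6 arrays, two-sided. The 3 comparisons share arrays. The fit was tested on simulated data. A gene in a list was represented by its brightest probe set. Members and lists were chosen with earlier results of these data known. Named genes were all members, genes of the eicosanoid, signalling and expansion lists called with a change of at least 1 on the log2 scale, and the 4 genes nearest in course to Ptgs2, Slco2a1 and Hpgd. Other genes named for a null result or a smaller change were chosen after their values were seen. Promoters are RefSeq's. Protein sequences were not used here. Alternatives were other normalizations, filters, variance models, probe set choices, a replicate block and leaving out each array.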

Additional observations from a re-analysis of the deposited data

How the results depend on the processing

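Over all alternative settings, 29 of 45 changes of member probe sets kept direction and side of the threshold. Of 645 recomputed values, 20 lost a call, 5 gained one and 9 changed sign, the last only in differences that were not called. Centring arrays on the common median gave 0.0089 for 1439747_at of Ptges from 8 h to 16 h and 0.0025 for Ptges2 at 8 h against no hCG. Leaving out 1 array gave -0.27 to 0.25 for that Ptges change, -0.33 to 0.087 for Pla2g4a from 8 h to 16 h, and, for Ptges2, -0.23 to 0.15 at 8 h against no hCG, -0.31 to 0.036 from 8 h to 16 h and -0.37 to 0.015 at 16 h against no hCG. Among the other named genes, 18 of 1379 values lost a call, and leaving out 1 array gave -0.17 to 0.081 for C730049O14Rik and -0.082 to 0.44 for S100a6 from 8 h to 16 h, neither of which was called. Of the genes nearest to Hpgd, the change of Rassf6 from 8 h to 16 h was not called without any 1 of the 4 arrays of these groups, and that of Car9 not without 3 of them. The Car9 change was also not called after quantile normalization (limma, adjusted p = 0.0565). That of Fbxw27 was not called without replicate 1 of the 8 h group or replicate 2 of the 16 h group. The change of Sema3g was called in all 14 settings.

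Leaving out 1 array gave 6109 to 9450 changed probe sets at 8 h against no hCG (9167 with all arrays; lowest without replicate 2 at 8 h) and 2518 to 6340 from 8 h to 16 h (4922 with all arrays; 2819 or fewer without any 1 of the 4 arrays of these groups). The group that lost an array then has 1 sample, which is assumed to vary like the others. The members called from 8 h to 16 h numbered 3 to 6 in those fits. Without probe sets whose names end in _s_at, _x_at or _a_at, Hpgd and Pla2g4a had no tested probe set. In that fit 5 member genes were called at 8 h against no hCG, 4 from 8 h to 16 h and 5 at 16 h against no hCG. The lower counts come from the absence of Hpgd and Pla2g4a, since no other member lost or gained a call. Over all probe sets kept, 6690, 3528 and 7222 were called, against 9167, 4922 and 10072 in the main fit.

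Whether replicate numbers pair the samples was not resolved. Deviations of same-numbered arrays correlated at 0.47 between no hCG and 8 h, 0.0010 between no hCG and 16 h and 0.13 between 8 h and 16 h. With the replicate number as a block, 10117, 5812 and 11045 probe sets were called, against 9167, 4922 and 10072 without it. Member genes called numbered 7, 5 and 7, and no member lost or gained a call. The cause of these shifts was not tested.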

Other observations

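Markers of other ovarian and oviduct cells took different courses. Of 8 tested theca and stroma markers, 5 fell and 0 rose at 8 h against no hCG (20.5% and 16.9% of all genes), and 4 fell from 8 h to 16 h (9.12% of all genes). The summed linear level of the 9 theca and stroma markers with a probe set, dim or not, was 1684 to 2319 at 8 h and 1018 to 1132 at 16 h. Each was below the 3414 to 3760 with no hCG. Of 7 endothelial markers 5 were dim, and the other 2 were both called higher at 16 h than with no hCG (20.8% of all genes). Neither of the 2 tested erythrocyte markers was called in any comparison. Of 4 ovarian surface epithelium markers, 1 fell at 8 h against no hCG (20.5% of all genes). From 8 h to 16 h 2 of these 4 fell (9.12% of all genes), as did 2 at 16 h against no hCG (20.8% of all genes). Of the 10 cumulus and granulosa markers, 9 fell and 0 rose at 16 h against no hCG (20.8% of all genes each way), with summed levels of 29474 to 33640 at 16 h against 69562 to 71534 with no hCG. The 11 oocyte markers, all lower at 8 h than with no hCG, split from 8 h to 16 h into 3 that rose, 4 that fell and 4 not called. How far these shifts bear on the prostaglandin genes was not tested.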
